A study of Mus musculus with 6 samples.

Results

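Activin and TGF-beta signalling was described through 10 genes, chosen by symbol from the counts table: the activin subunit genes Inhba and Inhbb, the activin antagonist gene Fst, the ligand genes Tgfb1, Tgfb2 and Tgfb3, the receptor genes Tgfbr1 and Tgfbr2, the intracellular inhibitor gene Smad7 and the latent TGF-beta binding protein gene Ltbp2. All 10 were found among the 24062 genes of the table, and all 10 were among the 14090 with enough counts to be tested. RNA was sequenced from mouse embryonic fibroblasts, connective tissue cells grown out of C57BL/6 embryos. The p27 OE cells carried a lentivirus that overexpresses p27, the inhibitor of cyclin-dependent kinases encoded by Cdkn1b, and were collected at day 4, before senescence. The EV control cells carry the same day in their titles. The labels do not spell out EV, name the promoter of the vector or say separately what the control cells received, and only the EV titles carry a dataset number. Each group had 3 libraries, numbered 1 to 3 in the labels, which do not say that these were separate cultures, so p-values measure the spread between these libraries. Where 3 values are given for a group, they are those of libraries 1, 2 and 3 in that order.

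TGF-beta and activin are secreted dimers that bind a type II receptor, which then phosphorylates a type I receptor. The type I receptor phosphorylates Smad2 and Smad3, which enter the nucleus with Smad4 and change transcription. TGF-beta is secreted in a latent complex that binding proteins can tether to the matrix, whereas activin is held in check outside the cell by follistatin. In fibroblasts these ligands are known for driving matrix and contractile genes, and Inhba is often listed among the genes of the senescence secretome.

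Depth and library make-up bear on every value below. Libraries held between 34920728 and 52098220 counts. Values are CPM, counts divided by the TMM-scaled size of the library. On the first principal component of log2 CPM, with 58.9% of the variance, both libraries numbered 1 lay away from the rest. They also differed from the rest in Xist and Ddx3y, genes that mark the sex of the cells. Xist was at 317 and 477 CPM in EV control 1 and p27 OE 1 and at most 9.57 CPM in the rest. Ddx3y was at 0.0556 and 0.0220 CPM in EV control 1 and p27 OE 1 and at 54.3 to 65.5 CPM in the rest. The libraries numbered 1 thus differed from the rest in the sex of their cells, and the part of this in the values below was not tested. Deviations from the group mean correlated at 0.77, 0.42 and 0.54 between the libraries numbered 1, 2 and 3. They also correlated at 0.41 between EV control 3 and p27 OE 2 and at 0.39 between EV control 2 and p27 OE 3. The correlations thus set number 1 apart but do not tell numbers 2 and 3 apart, and no label says that the numbers pair the libraries. A fit with the number as a block is given beside the fit without it. Cdkn1b stood at 49.9 to 52.2 CPM with EV and at 419, 978 and 460.0 CPM with p27 OE, with endogenous and vector transcripts counted together (edgeR adjusted p 0.0873 with the block and 0.180 without, DESeq2 adjusted p 3.88e-27 without). With the libraries numbered 2 left out, the blocked edgeR adjusted p was 1.46e-69. Any blocked fit with a number left out holds 2 pairs and leans mostly on the spread shared across genes. Such p-values, here and below, say little about the spread between these libraries. The 8 fibroblast markers, such as Col1a1, were all tested. Their summed level was 46228 to 50716 CPM with EV and 50378 to 52377 CPM with p27 OE. With the block, 2 of them (Pdgfra and Lum) were called lower, beside 3.63% of all tested genes. Most of that sum came from Col1a1 and Col1a2, which are also in the pathway list below. Endothelial markers summed to at most 4.04 CPM and epithelial ones to at most 12.1 CPM in any library, and the 5 skeletal muscle markers to at most 0.370 CPM, with Myf5 and Ckm at 0. The 6 macrophage markers in the table summed to 42.8 to 52.8 CPM with EV and 38.4 to 68.6 CPM with p27 OE. With the block, 0 of 6 were called, beside 7.43% of all tested genes. The summed level of the 5 smooth muscle and pericyte markers was 400 to 720 CPM with EV and 586 to 949 CPM with p27 OE. With the block, 5 of 5 were called higher, beside 3.8% of all tested genes. So were 2 of 4 cartilage and 1 of 5 neural markers. The part of such cells in the results below was not tested, and in bulk RNA a change in the number of cells of a type and a change in RNA per cell cannot be told apart.

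The planned main fit, edgeR without a block, called 0 of 10 genes, beside 0% of all tested genes. The fit with the number as a block was an alternative to it. With the block, Inhba, Ltbp2 and Fst were called higher in p27 OE and none of the 10 genes was called lower. Inhbb and Tgfbr2 were lower in each pair without being called. Inhba was 1.45-fold and Ltbp2 1.55-fold higher, and Fst was 1.22-fold higher. The other 7 genes, among them all 3 TGF-beta ligand genes and both receptor genes, did not pass the test. In this edgeR fit (quasi-likelihood test, Benjamini-Hochberg adjustment over all genes, threshold 0.05) 3 of 10 genes were called, beside 7.43% of all tested genes. The 10 genes were chosen with earlier results of these data known. In the edgeR fit without the block 0 of 10 were called, beside 0% of all tested genes. There 1 of 10 had an unadjusted p under 0.05, beside 7.22% of all, DESeq2 without the block called 1 of 10, beside 0.632% of all, and limma-voom called 0 of 10 and 0 of all. The median log2 fold change of the 10 genes was 0.08 with the block, beside -0.0012 over all tested genes.

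**Figure D1:**
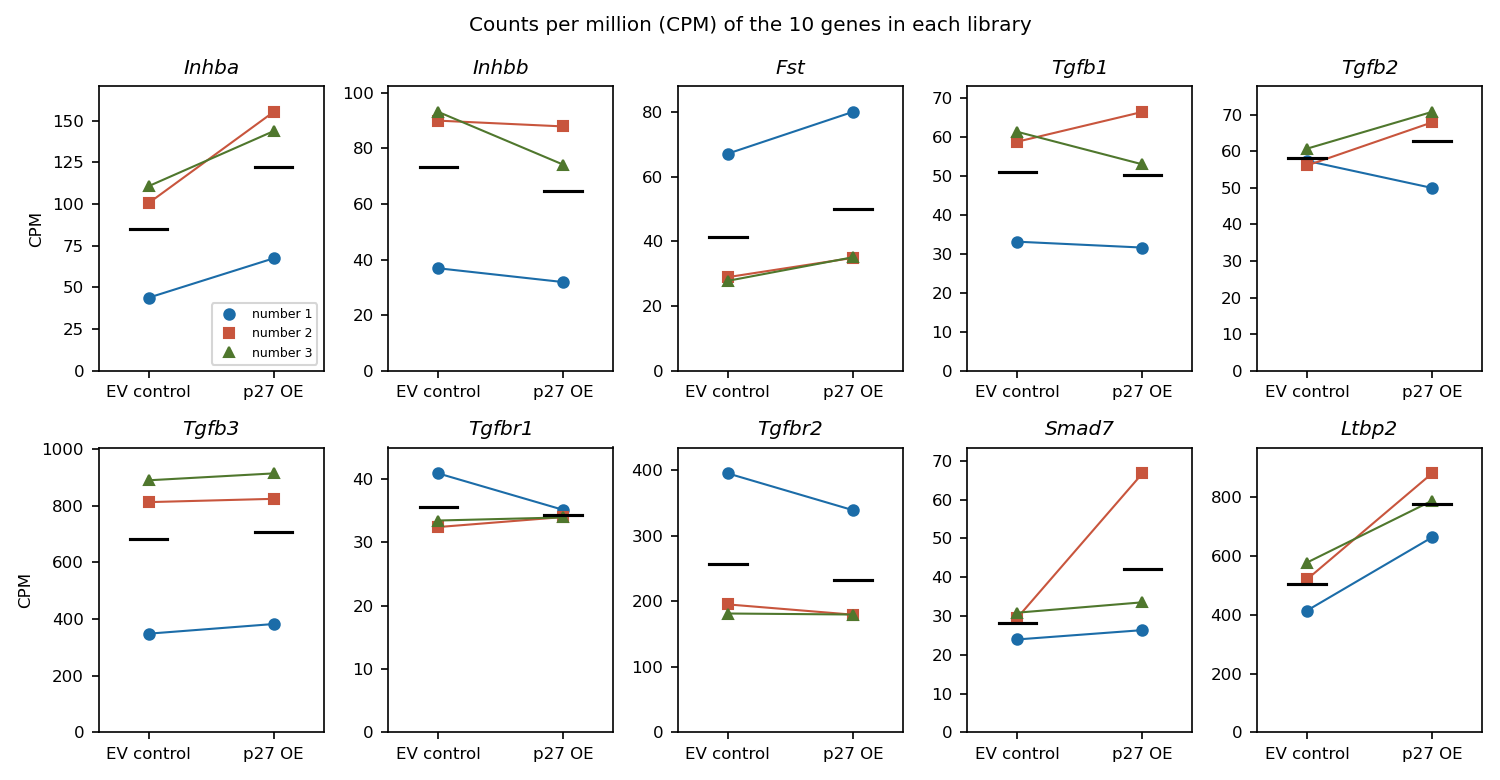
CPM (vertical axis, from 0) of each of the 10 genes in EV control and p27 OE, 1 symbol and line for each library number and a black bar for the group mean. The 3 lines rise for Inhba, Fst and Ltbp2, which were called with the block, and for Tgfb3 and Smad7, which were not. The libraries numbered 1 lie apart from the others in Inhba, Inhbb, Fst, Tgfb1, Tgfb3 and Tgfbr2.

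Inhba encodes the beta A subunit, of which a pair makes activin A. It was at 43.9, 101 and 111 CPM with EV and 67.5, 155 and 144 CPM with p27 OE. Each p27 OE library was above the EV control library of its number, but p27 OE 1 was below EV control 2 and 3, so the groups overlapped. The mean was 85.0 ± 36.0 CPM with EV and 122 ± 47.7 CPM with p27 OE (SD, n = 3 libraries each). The log2 ratio was 0.62, 0.63 and 0.38 in pairs 1, 2 and 3. With the block, edgeR gave a log2 fold change of 0.54 ± 0.06 (SE, n = 3 pairs) with an adjusted p of 0.000294, and 0.52 ± 0.42 without it, with an adjusted p of 0.854. Leaving out both libraries of any 1 number kept the blocked value between 0.50 and 0.62. The edgeR adjusted p was then 0.000105 or less, from 2 pairs and mostly the spread shared across genes. The log2 fold change without the block ranged more widely, from 0.21 without EV control 1 to 0.81 without p27 OE 1. In GENCODE M21 on GRCm38, Inhba spans 16011851 to 16031621 of chromosome 13, forward strand.

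Inhbb, the beta B subunit gene of activin B and AB, was not called. It was at 36.9, 90.0 and 93.1 CPM with EV and 31.9, 87.9 and 74.2 CPM with p27 OE. Each p27 OE library was below its EV control partner, by 0.21, 0.03 and 0.33 on the log2 scale, and the groups overlapped. The blocked edgeR log2 fold change was -0.19 ± 0.07 (adjusted p 0.0911), and with both libraries numbered 2 left out it was -0.27 (adjusted p 0.0285). Inhbb lies on chromosome 1 from 119415465 to 119422248 on the reverse strand.

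The balance of the activin subunit transcripts separated the groups without any scaling of the libraries. The count of Inhba divided by that of Inhbb was 1.19, 1.12 and 1.19 with EV and 2.11, 1.76 and 1.94 with p27 OE. The groups did not overlap, and the ratio was 1.78, 1.58 and 1.63 times as high within pairs 1, 2 and 3. Unlike either gene alone, the ratio was alike in the libraries numbered 1 and in the others of the same group. Per length of transcript, Inhba made up 43.7% ± 0.875 of the sum of both genes in EV control and 56.3% ± 2.2 in p27 OE (SD, n = 3). Of 5 such ratios compared, this had the smallest p, 0.1 in an exact two-sided permutation test of its log2, the smallest that 3 against 3 can give, and 0.5 after Benjamini-Hochberg adjustment over the 5. The ratio of mean ratios was 1.66 and stayed between 1.59 and 1.74 when any 1 library was left out.

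The stretches of DNA just before the start sites of Inhba, Inhbb and Ltbp2 are shown because Inhba and Ltbp2 were called higher with the block and Inhbb was not. The windows are 250 bases long, end at the base before the RefSeq start site (GRCm38.p6), and are written 5′ to 3′ on the strand of the gene. Capitals mark TATAAA. Inhba is at chr13:16011601-16011850 on the forward strand, Inhbb at chr1:119422249-119422498 and Ltbp2 at chr12:84876492-84876741, both on the reverse strand.
Inhba: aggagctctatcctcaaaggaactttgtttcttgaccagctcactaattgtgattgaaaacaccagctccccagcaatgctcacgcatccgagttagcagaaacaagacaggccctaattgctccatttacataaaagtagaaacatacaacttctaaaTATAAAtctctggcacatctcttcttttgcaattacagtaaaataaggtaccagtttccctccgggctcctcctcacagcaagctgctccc
Inhbb: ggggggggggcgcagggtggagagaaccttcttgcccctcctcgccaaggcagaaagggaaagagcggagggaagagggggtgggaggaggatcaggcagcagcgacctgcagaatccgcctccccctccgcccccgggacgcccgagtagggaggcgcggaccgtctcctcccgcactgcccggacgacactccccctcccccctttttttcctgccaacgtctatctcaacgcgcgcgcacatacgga
Ltbp2: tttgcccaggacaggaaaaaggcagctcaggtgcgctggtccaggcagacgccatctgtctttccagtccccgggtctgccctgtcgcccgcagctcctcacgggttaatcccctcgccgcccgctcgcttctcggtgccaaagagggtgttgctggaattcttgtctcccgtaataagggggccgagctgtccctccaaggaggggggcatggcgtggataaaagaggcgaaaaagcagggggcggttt
The windows differed in base composition, with 43.2% G and C and 3 CpG sites before Inhba, 68% and 21 before Inhbb and 61.6% and 16 before Ltbp2. In these 3 windows TATAAA was found once, 91 bases before the Inhba start. It was also found 31 bases before the start of Tgfb2, which was not called, and in 12.4% of the 32851 windows of that length in RefSeq's table. CAGACA, a form of the Smad element, TGANTCA, bound by AP-1, CATTCC, bound by TEAD factors, and the CArG box, bound by serum response factor, were searched on both strands, with overlaps allowed. None of these 4 patterns was present in any of the 3 windows, against 17.1%, 6.75%, 12.6% and 1.47% of all windows. Other or shorter forms of these elements were not searched, so the windows may still hold them. RefSeq's table held windows for 7 of the 10 genes, and CAGACA occurred in those of Tgfb2 and of a second start site of Tgfbr1.

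Fst encodes follistatin, the secreted protein that binds activin and blocks its access to receptors. It was at 67.1, 29.0 and 27.8 CPM with EV and 80.0, 34.9 and 35.1 CPM with p27 OE. The pair numbered 1 was high in both groups, which made the groups overlap, and each p27 OE library was above its partner. The log2 ratios of 0.25, 0.27 and 0.33 in pairs 1, 2 and 3 were close to each other. With the block the edgeR log2 fold change was 0.29 ± 0.06 with an adjusted p of 0.0157, but 0.145 without the libraries numbered 3. Without the block it was 0.28 ± 0.46 with an adjusted p of 0.959, and it was -0.24 without p27 OE 1. Fst lies on chromosome 13 from 114452290 to 114458951 on the reverse strand, and an antisense gene, Gm47040, overlaps 115 bases of its exons.

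Inhba and its antagonist gene both rose within pairs. Counts of Inhba per count of Fst were 0.654, 3.47 and 3.98 with EV and 0.843, 4.45 and 4.09 with p27 OE. The ratio was below 1 in both libraries numbered 1 and above 3 in the other 4. Within pairs the ratio was 1.29, 1.28 and 1.03 times as high in p27 OE. The exact two-sided permutation p was 0.5, from a test that ignores the pairs and so does not test these pair ratios.

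**Figure D2:**
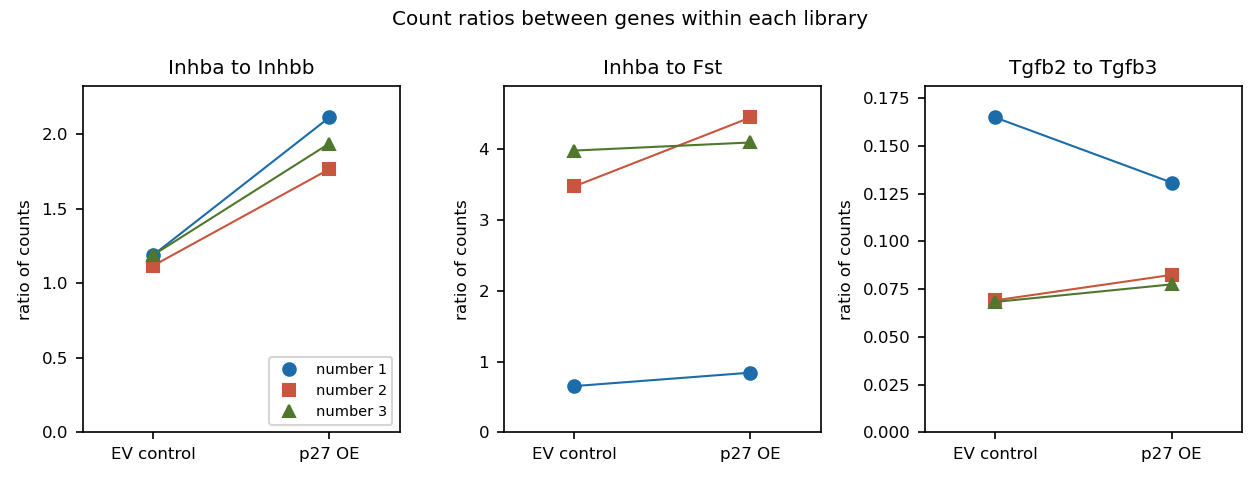
Ratio of the counts of a pair of genes (vertical axis, from 0) in each library, with a line joining the libraries of a number. The Inhba to Inhbb ratio lies between 1.12 and 1.19 in EV control and between 1.76 and 2.11 in p27 OE, whereas the Inhba to Fst and Tgfb2 to Tgfb3 ratios overlap between groups and set the libraries numbered 1 apart.

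Ltbp2 encodes a matrix protein of the latent TGF-beta binding protein family, which sits on fibrillin fibres and, unlike its relatives, is not thought to bind latent TGF-beta itself. It was at 415, 521 and 578 CPM with EV and 663, 881 and 788 CPM with p27 OE. Every p27 OE library was above every EV control library, which held for no other gene of the 10. Groups were apart in 1 of 10 genes, beside 14.9% of all tested genes, 6.61% higher and 8.28% lower in p27 OE. The mean was 504 ± 82.9 CPM with EV and 778 ± 109 CPM with p27 OE (SD, n = 3). The log2 ratio was 0.68, 0.76 and 0.45 in pairs 1, 2 and 3. The edgeR log2 fold change was 0.63 ± 0.07 with the block, with an adjusted p of 0.000138, and 0.62 ± 0.16 without it, with an adjusted p of 0.651. DESeq2 without the block gave an adjusted p of 0.0469. Leaving out both libraries of a number gave blocked values of 0.57 to 0.72. The edgeR adjusted p was then 0.000196 or less, again from 2 pairs and mostly the spread shared across genes. Ltbp2 lies on chromosome 12 from 84783212 to 84876532 on the reverse strand, and 764 bases of its exons overlap the antisense gene D030025P21Rik, whose reads the library kit cannot tell apart.

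The 3 TGF-beta ligand genes were not called in either fit. Tgfb3 was at 348, 812 and 889 CPM with EV and 382, 824 and 913 CPM with p27 OE. The libraries numbered 1 were at less than the other 4 in both groups. Its blocked log2 fold change was 0.06 ± 0.06 (edgeR, adjusted p 0.530). Tgfb1 was at 33.1, 58.7 and 61.2 CPM with EV and 31.6, 66.3 and 52.9 CPM with p27 OE. It differed by -0.03 ± 0.07 (edgeR with the block, adjusted p 0.831), with pairs that moved in both directions. Tgfb2 was at 57.4, 56.1 and 60.7 CPM with EV and 49.98, 67.9 and 70.8 CPM with p27 OE. Pair 1 moved down by 0.20 and pairs 2 and 3 up by 0.27 and 0.22 on the log2 scale. The blocked value was 0.10 ± 0.09 (edgeR, adjusted p 0.554), and without the libraries numbered 1 it was 0.25 with an adjusted p of 0.0139. Tgfb1 spans 25687002 to 25705077 of chromosome 7, forward strand, while Tgfb2 lies on chromosome 1 from 186622792 to 186705989 and Tgfb3 on chromosome 12 from 86056745 to 86079041, both on the reverse strand. Genes on the opposite strand overlap 124 bases of Tgfb2 exons (Gm29491) and 257 and 163 bases of Tgfb3 exons (Gm48008 and Gm37804).

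Per length, Tgfb3 made up most of the TGF-beta ligand transcripts in every library. Its share of the 3 genes, in CPM per kilobase of exons, was 90.0% ± 3.32 in EV control and 90.4% ± 1.96 in p27 OE (SD, n = 3). Tgfb2 made up 8.30% and 6.75% in EV control 1 and p27 OE 1 and 3.67% to 4.37% in the other 4 libraries. The share of Tgfb1 was 4.74% ± 0.667 in EV control and 4.46% ± 0.760 in p27 OE. With the longest transcript as the length, the share of Tgfb1 was 8.81% ± 1.15 and 8.33% ± 1.36, above that of Tgfb2 in each library, and that of Tgfb3 85.6% ± 3.94 and 86.2% ± 2.51.

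Neither receptor gene was called. Tgfbr1, the type I receptor gene for TGF-beta, was at 40.9, 32.4 and 33.5 CPM with EV and 35.2, 34.0 and 34.0 CPM with p27 OE. It differed by -0.05 ± 0.07 (edgeR with the block, adjusted p 0.756). Tgfbr2, the type II receptor gene, was at 395, 195 and 181 CPM with EV and 339, 180 and 180 CPM with p27 OE. The libraries numbered 1 were high in both groups, the reverse of Tgfb3. Its blocked value was -0.12 ± 0.06 (edgeR, adjusted p 0.228), with all 3 pairs moving down. Counts of Tgfbr2 per count of Tgfbr1 were 9.66, 6.02 and 5.42 with EV and 9.64, 5.28 and 5.30 with p27 OE. Tgfbr1 spans 47353222 to 47414931 of chromosome 4, forward strand, and Tgfbr2 spans 116084293 to 116175360 of chromosome 9, reverse strand.

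Smad7 encodes the inhibitory Smad, itself induced by the pathway, that blocks type I receptors. It was at 24.0, 29.6 and 30.9 CPM with EV and 26.4, 66.8 and 33.5 CPM with p27 OE. A single library, p27 OE 2, stood above the other 5. The blocked log2 fold change was 0.48 ± 0.32 (edgeR, adjusted p 0.508). Without p27 OE 2 the value without the block fell from 0.59 to 0.09, and without both libraries numbered 2 the blocked value was 0.13. In the same library 3 genes of the target list, chosen for their high values there, were also high. Junb was at 129 CPM against 49.1 to 67.3 in the other 5 libraries, and Bhlhe40 at 274 CPM against 75.0 to 133. Hbegf was at 117 CPM against 21.7 to 63.3. None of these 3 was called with the block, and p27 OE 2 was also the library with the most Cdkn1b. The part of that in the Smad7 value was not tested.

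**Figure D3:**
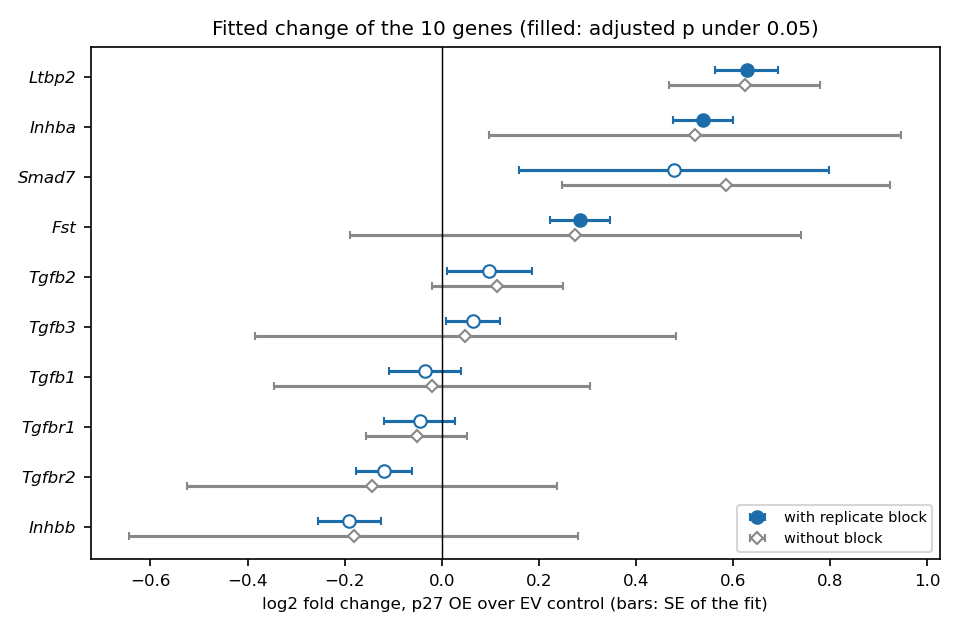
Log2 fold change (horizontal axis) of the 10 genes from edgeR with the replicate block (blue circles, filled where the adjusted p is under 0.05) and without it (grey diamonds), with bars for the SE of the fit. The estimates of both fits lie close together, from -0.19 for Inhbb to 0.63 for Ltbp2 with the block, and the bars without the block are wider in all 10 genes.

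In 7 of the 10 genes the log2 difference between EV control 1 and the mean of EV control 2 and 3 was larger than the blocked log2 fold change. Fst was 2.36 times and Tgfbr2 2.10 times as high in EV control 1 as in the mean of EV control 2 and 3. Inhba, Inhbb and Tgfb3 were 2.41-fold, 2.48-fold and 2.44-fold lower in EV control 1. The same ordering was seen in p27 OE, where Fst was 2.29 times as high in library 1 and Inhba, Inhbb and Tgfb3 were 2.22-fold, 2.54-fold and 2.27-fold lower. Of the 10 genes, 7 moved one way in all 3 pairs, 5 up and 2 down, beside 45.5% of all tested genes, 21.8% up and 23.7% down.

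Levels of the 10 genes were compared per kilobase of exons, over all 6 libraries. Tgfb3 was highest at a mean of 205 CPM per kilobase, followed by Ltbp2 at 78.3 and Tgfbr2 at 29.9, and each of these was above the next in 6 of 6 libraries. Inhbb and Inhba, both at 16.2, changed order between libraries, Inhbb being above in 3 of 6. Tgfb2 at 10.4, Tgfb1 at 10.0 and Fst at 9.95 CPM per kilobase also changed order with the gene after each, being above it in 3, 4 and 3 of 6 libraries. Smad7, the gene after Fst, was at 7.78, and Tgfbr1 was lowest at 5.36, below Smad7 in 5 of 6. With the longest annotated transcript as the length, Tgfb1 was at 19.7 and Fst at 15.6 CPM per kilobase, so the ranks of these depend on the length used.

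Around these 10 genes, 98 genes of the pathway were listed by role, and 86 were tested. The Benjamini-Hochberg adjusted edgeR test with the block called 21 higher and 2 lower, or 26.7% of those tested. Among all tested genes 3.8% were called higher and 3.63% lower. The list was chosen with earlier results of these data known, so this difference in share is not a test of the pathway. Without the block edgeR called 0, with 9 at an unadjusted p under 0.05, while DESeq2 called 3 and limma-voom 0. The list's median log2 fold change was 0.11 with the block, and 0.09, 0.19 and 0.05 in pairs 1, 2 and 3. Without the libraries numbered 3 the block fit had 15 genes up and 1 down, beside 2.32% of all genes called in that fit. Without those numbered 1 it had 27 up and 4 down, beside 12.4% of all.

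Beside 7.43% of all tested genes, 1 of the 7 ligand genes tested was called with the block, Inhba. Among the others outside the 10, Gdf11 was at 11.2 to 13.4 CPM and Inha, the inhibin alpha subunit gene whose product pairs with a beta subunit to oppose activin, at 7.37 to 9.91 CPM over the 6 libraries. Neither was called (log2 fold changes of -0.07 ± 0.10 and 0.01 ± 0.12). Nodal, Gdf1, Inhbc and Inhbe had no count in any library, and Mstn and Gdf3 did not pass the filter.

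Of 8 receptor and co-receptor genes tested, 0 were called higher and 1 lower with the block, beside 3.8% and 3.63% of all tested genes. The gene called lower was Tgfbr3, the gene of betaglycan, a co-receptor that presents TGF-beta2 and lets inhibin compete with activin. It was at 95.7, 57.4 and 49.3 CPM with EV and 81.2, 40.7 and 35.1 CPM with p27 OE. Each p27 OE library was below its partner, and the edgeR log2 fold change with the block was -0.40 ± 0.07 with an adjusted p of 0.00375. The endoglin gene Eng had 23.5 to 26.7 CPM with EV and 26.8 to 30.5 CPM with p27 OE, a log2 difference of 0.19 ± 0.07 (edgeR with the block, adjusted p 0.121). The activin receptor gene Acvr2b, at 0.833 to 1.95 CPM, was not called (-0.59 ± 0.29).

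Of 19 genes for latency, activation and extracellular antagonists, 5 were called higher with the block and 0 lower. Over all tested genes these shares were 3.8% and 3.63%. Besides Ltbp2 and Fst, the 5 were Itgav, Thbs1 and Fbn1. With Ltbp2 and Fst set aside, 3 of 17 were called. Itgav encodes the integrin alpha V chain, which pairs with beta chains to release TGF-beta from its latent complex. It was at 236, 263 and 305 CPM with EV and 332, 417 and 414 CPM with p27 OE, with no overlap of the groups (0.53 ± 0.06, edgeR with the block, adjusted p 0.000220). Fbn1, the fibrillin gene of the microfibrils that hold latent complexes, had EV control values of 977 to 1318 CPM and p27 OE values of 1554 to 1671 CPM, also without overlap. Thbs1, the gene of thrombospondin 1, an activator of latent TGF-beta, had a log2 fold change of 0.58 ± 0.06 with the block. The other latent binding protein genes Ltbp1, Ltbp3 and Ltbp4 had values of 0.13, 0.07 and -0.06 and were not called. Of the integrin beta chain genes in the list, Itgb8 was at 4.7 to 6.5 CPM and not called (-0.04 ± 0.13). Itgb6 did not pass the filter.

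Of 7 intracellular transducer genes tested, including Smad2, Smad3 and Smad4, none was called with the block, beside 7.43% of all tested genes. Log2 fold changes of the 7 ran from -0.03 for Smad4 to 0.16 for the coactivator gene Crebbp. The coactivator gene Ep300 differed by 0.15 ± 0.07 and Trim33, a Smad4 ubiquitin ligase gene, by 0.08 ± 0.07. Of 14 inhibitor genes, 3 were called higher and 0 lower, beside 3.8% and 3.63% of all tested genes. Skil, a repressor of Smad complexes that is itself a target of the pathway, rose by 0.29 ± 0.06 (edgeR with the block, adjusted p 0.0126). The phosphatase subunit gene Ppp1r15a rose by 0.27 ± 0.06 (adjusted p 0.0223), and Pmepa1, which sequesters receptor Smads, by 0.21 ± 0.05 (adjusted p 0.0292). Without the libraries numbered 3 the blocked edgeR adjusted p was 0.275 for Ppp1r15a and 0.217 for Pmepa1, and without those numbered 2 it was 0.0918 for Pmepa1, so these calls were lost. Skil was called in every blocked setting.

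Of 31 target genes, 12 were called higher and 1 lower with the block, beside 3.8% and 3.63% of all tested genes. The median log2 fold change of the 31 was 0.22. Ctgf, a matricellular protein gene, went from 380, 1581 and 1647 CPM with EV to 633, 2752 and 2429 CPM with p27 OE. Each p27 OE library was above its partner, while p27 OE 1 was below EV control 2 and 3. Its blocked log2 fold change was 0.70 ± 0.06 (edgeR, adjusted p 4.85e-05). Fn1 (0.83 ± 0.08) and Eln (0.55 ± 0.06), genes of fibronectin and elastin, had groups that did not overlap. Groups were apart in 12 of the 86 tested pathway genes, 11 higher and 1 lower. The share over all tested genes was 14.9%, with 6.61% higher and 8.28% lower. The target gene called lower was Tgfbi, a matrix protein gene named for its induction by TGF-beta and singled out after its values were seen. It was at 366, 201 and 182 CPM with EV and 278, 177 and 153 CPM with p27 OE. The blocked edgeR value was -0.28 ± 0.06 (adjusted p 0.0123, but 0.0776 without the libraries numbered 3). Smooth muscle and pericyte markers were higher in p27 OE as given above, and Cnn1 is in both lists.

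**Figure D4:**
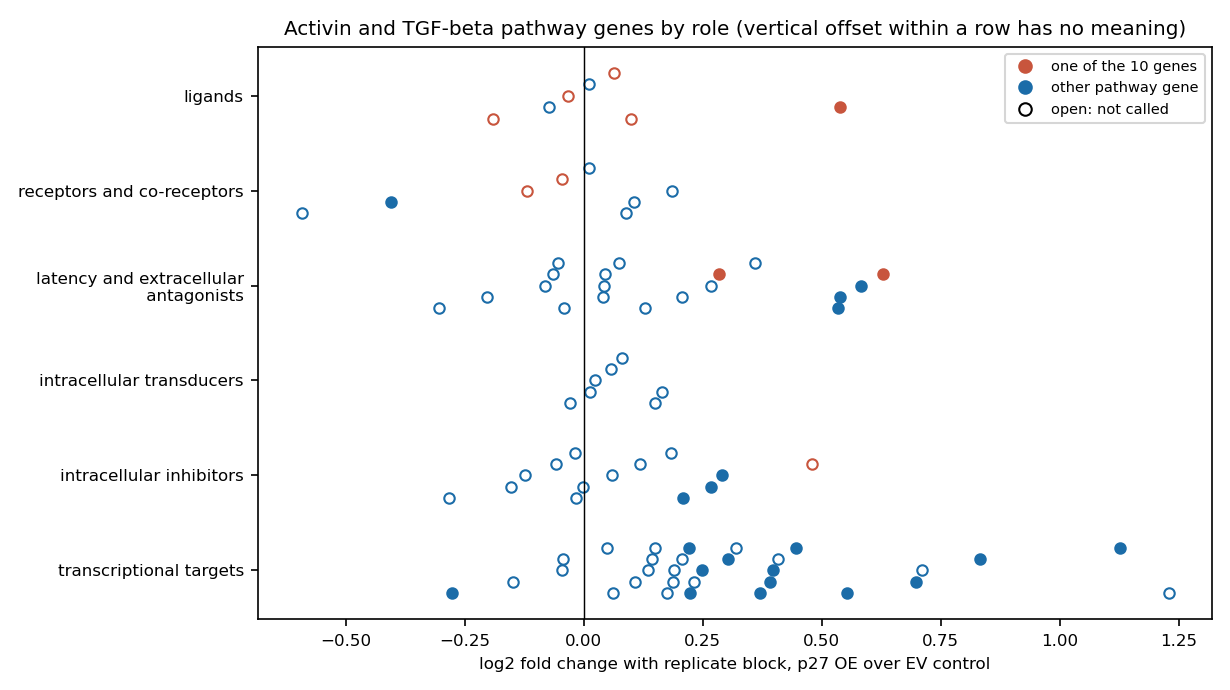
Log2 fold change with the replicate block (horizontal axis) of the 86 tested pathway genes in 6 rows by role, filled where called, with the 10 genes in red and the others in blue. Called genes are 12 higher and 1 lower among 31 targets and 0 among 7 transducers, beside 3.8% higher and 3.63% lower of all tested genes.

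The genes whose pattern over the 6 libraries lay closest to Inhba were Edn1, Bmpr1b and Rap1gap2. The measure was the root mean square difference of log2 CPM after centring each gene on its mean, over 10608 genes of at least 5 CPM, and it was 0.04, 0.07 and 0.08 for these 3. The centred values of Edn1, the endothelin 1 gene, were -1.12, 0.14 and 0.15 with EV and -0.49, 0.76 and 0.57 with p27 OE, beside -1.11, 0.08 and 0.22 with EV and -0.49, 0.71 and 0.60 with p27 OE for Inhba. For Tgfb2 the closest were Ube2g1, Cotl1 and Sptlc2, at 0.04, 0.05 and 0.05. For Ltbp2 the closest included Raph1 at 0.04 and Itgav at 0.08, of which Itgav is a pathway gene called higher above.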

How the data were processed

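Column-purified RNA went into TruSeq version 2 libraries, per the labels' protocols, a kit that does not mark strand. The values are raw gene counts by symbol for 6 libraries, as the authors deposited them. The submitters' processing notes name build mm10 and list featureCounts 1.4.6, Subread, Bowtie2 2.2.6 and TopHat2 2.0.14, with no role or order. No source used here gives the annotation, the strand setting or how reads with several matches were counted.

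Genes were kept with edgeR's filterByExpr (minimum count 10, minimum total 15). TMM factors set the library sizes of the CPM and the fits, and log2 ratios in pairs use a prior count of 2. Tests used edgeR 4.0.16 (quasi-likelihood, robust, two-sided, Benjamini-Hochberg) in R 4.3.3. The SE came from the F statistic. The planned main fit had no block, since no source states that the numbers pair the libraries. A second fit, an alternative, had the replicate number as a block. The numbers come from the titles, and the correlations of same-numbered libraries, 0.77, 0.42 and 0.54, were each above 0.1. For numbers 2 and 3 they were close to those of the crossed pairs, 0.41 and 0.39, so the correlations do not tell these numbers apart. Xist was at 5.93 (EV control) and 9.57 CPM (p27 OE) in the libraries numbered 2 and at 0.601 and 0.504 CPM in those numbered 3. For Ddx3y the values were 62.1 and 65.5 CPM against 54.3 and 62.8 CPM. What the numbers 2 and 3 stand for was not tested. Closest replicates, EV control 2 and 3, differed beyond sampling noise (mean chi-square per gene 9.77). Other alternatives were RLE and upper-quartile scaling, other filters, DESeq2 1.42.0, limma-voom (limma 3.58.1) and leaving out libraries. The longest transcript as the length and the subunit ratio with a library left out were added after the data were seen. Both fits were tested on simulated data. Of genes changed 1.5-fold, 2 of 50 were recovered without the block and 35 of 50 with it, with 0 and 4 false calls. The simulated libraries of a number shared a baseline by construction, so this does not test the pairing.

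Genes named are the 10 members, Cdkn1b, in each role the 3 other tested genes with the smallest blocked p, and the 3 genes closest in pattern to Inhba, Tgfb2 and Ltbp2. Others were chosen after their values were seen. Single values of some genes that these choices name are not reported here. The members and lists were chosen with earlier results of these data known. Lengths and positions are from GENCODE M21 on GRCm38, the assembly that mm10 names, and sequences from RefSeq on GRCm38.p6.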

Additional observations from a re-analysis of the deposited data

How the results depend on the processing

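The calls rest on the replicate block. Without it, edgeR called 0 genes with either other scaling, 1 with no filter and 0 to 1 when 1 library was left out. DESeq2 without the block called 89 genes, 1 of the 10 and 3 of the pathway list. With the block the counts for all genes, the 10 and the pathway list were 1047, 3 and 23 with TMM, 1042, 3 and 23 with RLE, 1219, 3 and 23 with upper-quartile scaling, 1416, 3 and 24 with no filter, 1018, 3 and 23 with at least 1 CPM in 3 libraries, 830, 3 and 24 with DESeq2 and 829, 3 and 25 with limma-voom. With upper-quartile scaling the split over all genes was 483 higher and 736 lower, against 535 and 512. Leaving out both libraries of a number, the block called 330 to 1741 genes (928 without number 2), 2 to 4 of the 10 and 16 to 31 of the pathway list. The number of the 10 genes with groups apart ranged from 1 to 5 when a library was left out, with 4 without EV control 1 and 5 without p27 OE 1, where 33.3% and 37% of all tested genes had groups apart. Inhba and Ltbp2 were called in all 10 blocked settings, and Fst in 9 of 10.

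Some values changed sign when libraries were left out. Without the block the log2 fold change ranged from -0.27 to 0.35 for Tgfb3, -0.11 to 0.060 for Tgfbr1, -0.52 to 0.31 for Tgfbr2, -0.60 to 0.082 for Tgfbi, -0.27 to 0.23 for Tgfb1, -0.50 to 0.14 for Inhbb, -0.24 to 0.82 for Fst, -0.11 to 0.11 for Inha and -0.024 to 0.28 for Crebbp. With the block it ranged from -0.097 to 0.044 for Tgfbr1, -0.085 to 0.083 for Inha, -0.19 to 0.011 for Gdf11 and -0.14 to 0.056 for Tgfb1. With upper-quartile scaling Inha was at -0.0015 without the block and -0.0089 with it. The causes were not tested.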
